A study of Mus musculus with 8 samples.

Results

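The genes described here are the annexins and the S100 genes of the mouse, taken by gene symbol from a table of read counts (Anxa followed by a number, S100a followed by a number, and S100b, S100g, S100p, S100z and S100pbp). Of 53170 named genes in the table, 29 matched, 12 of them annexins and 17 S100 genes. The libraries come from organoids, grown for 5 days in growth medium from hindstomach (glandular stomach) epithelium of mouse embryos at embryonic day 18.5. There were 2 groups of 4 bulk RNA-seq libraries. The YAP5SA libraries have the genotype Shh-Cre;YAP5SA, in which Shh-Cre, a recombinase active in foregut epithelium, is combined with a transgene for an active form of the transcriptional coactivator YAP. The control libraries have the genotype Shh-Cre and so carry the recombinase as well. Whether each library had an embryo or culture of its own is not stated, and all p-values therefore rest on the spread among these libraries, which may be technical.

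Annexins are proteins that bind acidic phospholipids of membranes in the presence of calcium and take part in vesicle traffic, in cortical actin organisation and in the repair of wounded plasma membrane. S100 proteins are small calcium sensors built of EF-hand motifs that mostly act as dimers, and several of them dock onto annexins. S100a10 partners Anxa2, S100a11 partners Anxa1, and S100a6 is known to bind several annexins. Annexin A10 is best known as a protein of gastric surface epithelium, and the genes for most S100 proteins lie in a cluster next to genes of the cornified envelope.

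The regulatory sequence before the transcription start is shown for the members with the largest called rise and the largest called fall in each family, among those with a group mean of at least 10 CPM, except S100a14, which had no entry. The sequences are those of RefSeq on build GRCm38.p6, matched by symbol, and run 5′ to 3′ on the strand of the gene over the 250 bases before the start. Capitals mark matches to TGANTCA, the motif of AP-1 factors, which reads the same on both strands; GGAATG, the core motif of the TEAD partners of YAP, was searched on both strands and had no match in any window printed here. The first belongs to the annexin with the largest decrease, on the minus strand at chr8:62123194-62123443.
Anxa10: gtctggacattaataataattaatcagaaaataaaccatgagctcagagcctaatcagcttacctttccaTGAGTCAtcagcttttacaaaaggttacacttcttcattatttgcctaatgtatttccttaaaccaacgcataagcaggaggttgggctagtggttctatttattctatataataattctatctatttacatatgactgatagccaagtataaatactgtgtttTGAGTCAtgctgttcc
The annexin with the largest increase has 2 annotated starts on the minus strand, at chr3:95307193-95307442 and chr3:95315181-95315430, and neither window holds a match to either motif.
Anxa9: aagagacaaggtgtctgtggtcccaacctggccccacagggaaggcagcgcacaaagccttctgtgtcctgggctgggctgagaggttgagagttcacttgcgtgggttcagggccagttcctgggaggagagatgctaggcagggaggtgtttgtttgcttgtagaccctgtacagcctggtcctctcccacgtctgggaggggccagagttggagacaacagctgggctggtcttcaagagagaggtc
Anxa9: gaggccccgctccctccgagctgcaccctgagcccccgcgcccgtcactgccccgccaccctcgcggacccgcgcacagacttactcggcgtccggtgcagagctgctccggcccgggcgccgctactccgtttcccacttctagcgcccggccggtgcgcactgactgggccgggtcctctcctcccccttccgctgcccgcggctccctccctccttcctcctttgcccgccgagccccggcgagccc
The S100 gene with the largest decrease among those of at least 10 CPM, S100a1, on the minus strand at chr3:90514331-90514580, has no match to either motif, and capitals mark instead the 104 bases that lie between its start and that of S100a13, which is transcribed in the opposite direction.
S100a1: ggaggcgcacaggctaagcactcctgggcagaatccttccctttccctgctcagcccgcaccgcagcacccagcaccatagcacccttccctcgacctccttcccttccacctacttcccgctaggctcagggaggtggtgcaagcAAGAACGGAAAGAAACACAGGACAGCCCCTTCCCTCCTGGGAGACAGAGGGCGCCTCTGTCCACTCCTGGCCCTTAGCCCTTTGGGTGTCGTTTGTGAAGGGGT

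The table matched 23 of the 29 members with 31 windows. Anxa3, Anxa6, Anxa13, S100a2, S100a10 and S100a14 had no entry. TGANTCA was found in 4 of the 31 windows (12.9%), those of Anxa2, Anxa10, S100a11 and 1 of the starts of S100a16, against 6.75% of all 32851 promoters of the same length. GGAATG was found in 3 windows (9.68%), of Anxa1, S100a3 and S100z, against 12.6% of all promoters. A match here is a stretch of letters and was not examined for binding.

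Total counts per library lay between 13672268 and 19710648. The groups differed in sex. Xist, the RNA that coats the silenced X in females, ranged from 0.412 to 2.76 CPM in YAP5SA libraries and from 675.6 to 1049 CPM in controls, and the Y-linked gene Ddx3y averaged 73.2 CPM in YAP5SA and 0.0812 CPM in controls. Genotype and sex cannot be told apart in any value given here. The epithelial markers Epcam, Cdh1, Krt8, Krt18 and Krt19 were abundant in every library and summed to between 6147 and 6405 CPM in YAP5SA and between 7452 and 7977 CPM in controls. Gastric markers (Sox2, Gkn1, Gkn2, Tff1, Tff2, Muc5ac, Cldn18 and Pgc) summed to between 53.2 and 59.1 CPM in YAP5SA libraries, mostly Sox2, and to between 2103 and 2220 CPM in controls, mostly Cldn18, and 6 of the 8 fell, Sox2 rose and 1 did not pass. In bulk samples fewer cells of a type and less RNA per cell cannot be told apart. Markers of squamous epithelium summed to 898 to 1017 CPM in YAP5SA and 125 to 181 CPM in controls, mostly through Krt4, and of the 3 tested Krt4 rose, Ivl fell and Krt13 did not pass. Mesothelial markers summed to 1316 to 1655 CPM in YAP5SA and 3114 to 3562 CPM in controls, mostly through Msln, which fell, while the other 2 tested, Upk3b and Lrrn4, rose. Marker lists of enteric neurons, endothelial cells and erythroid cells reached at most 4.51, 2.83 and 0.906 CPM in YAP5SA and at most 12.98, 13.8 and 0.825 CPM in controls.

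Annexins and S100 genes changed in both directions. Anxa10 was nearly absent from YAP5SA organoids, Anxa8 and Anxa4 were lower, and Anxa9, S100a14 and S100a4 were higher, while Anxa1, Anxa2, Anxa3 and S100a11, which were abundant in both groups, differed by at most 1.22-fold. Of the 29 members, 21 were counted often enough to be tested, 11 annexins and 10 S100 genes. Among these, 18 passed an adjusted p of 0.05 (edgeR quasi-likelihood test, Benjamini-Hochberg adjustment over all tested genes), against 49.1% of all 14058 tested genes. With a group mean of at least 100 CPM, 12 of 14 members passed, against 64.3% of 2634 genes. The part of abundance in the share of members called was not tested. The 18 members called split into 8 that were higher in YAP5SA (background 23.6%) and 10 that were lower (background 25.5%). A change of at least 2-fold was called in 6 of the 21 tested members (background 13.8%), and the groups did not overlap in 17 (background 45.7%). All these counts include S100g as lower, which passed the filter on low counts only through the controls.

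Levels are given in CPM, read counts scaled for library size and composition, with the 4 libraries of a group in the order of their numbers, and fold changes are YAP5SA over control. The annexins gave 3 higher and 6 lower genes with a median log2 fold change of −0.16. The S100 genes gave 5 higher and 4 lower with a median of 0.11, which is the same with S100g at the bound given below, and the median of all tested genes was 0.00412. A median over the tested members covers only those that passed the filter on low counts. Summed over each family, annexins came to 5066 ± 232 CPM in YAP5SA and 5521 ± 207 CPM in controls, and S100 genes to 2357 ± 117 CPM in YAP5SA and 1820 ± 75.3 CPM in controls (SD, n = 4 each). The library ranges of these annexin sums overlapped and those of the S100 sums did not. Sums of CPM per kb of exon gave the reverse. Annexins then came to 1511 ± 72.0 in YAP5SA and 1720 ± 68.2 in controls, without overlap. S100 genes came to 2641 ± 99.8 in YAP5SA and 2451 ± 80.0 in controls, with YAP5SA 3 (2523) below control 3 (2568).

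**Figure D1:**
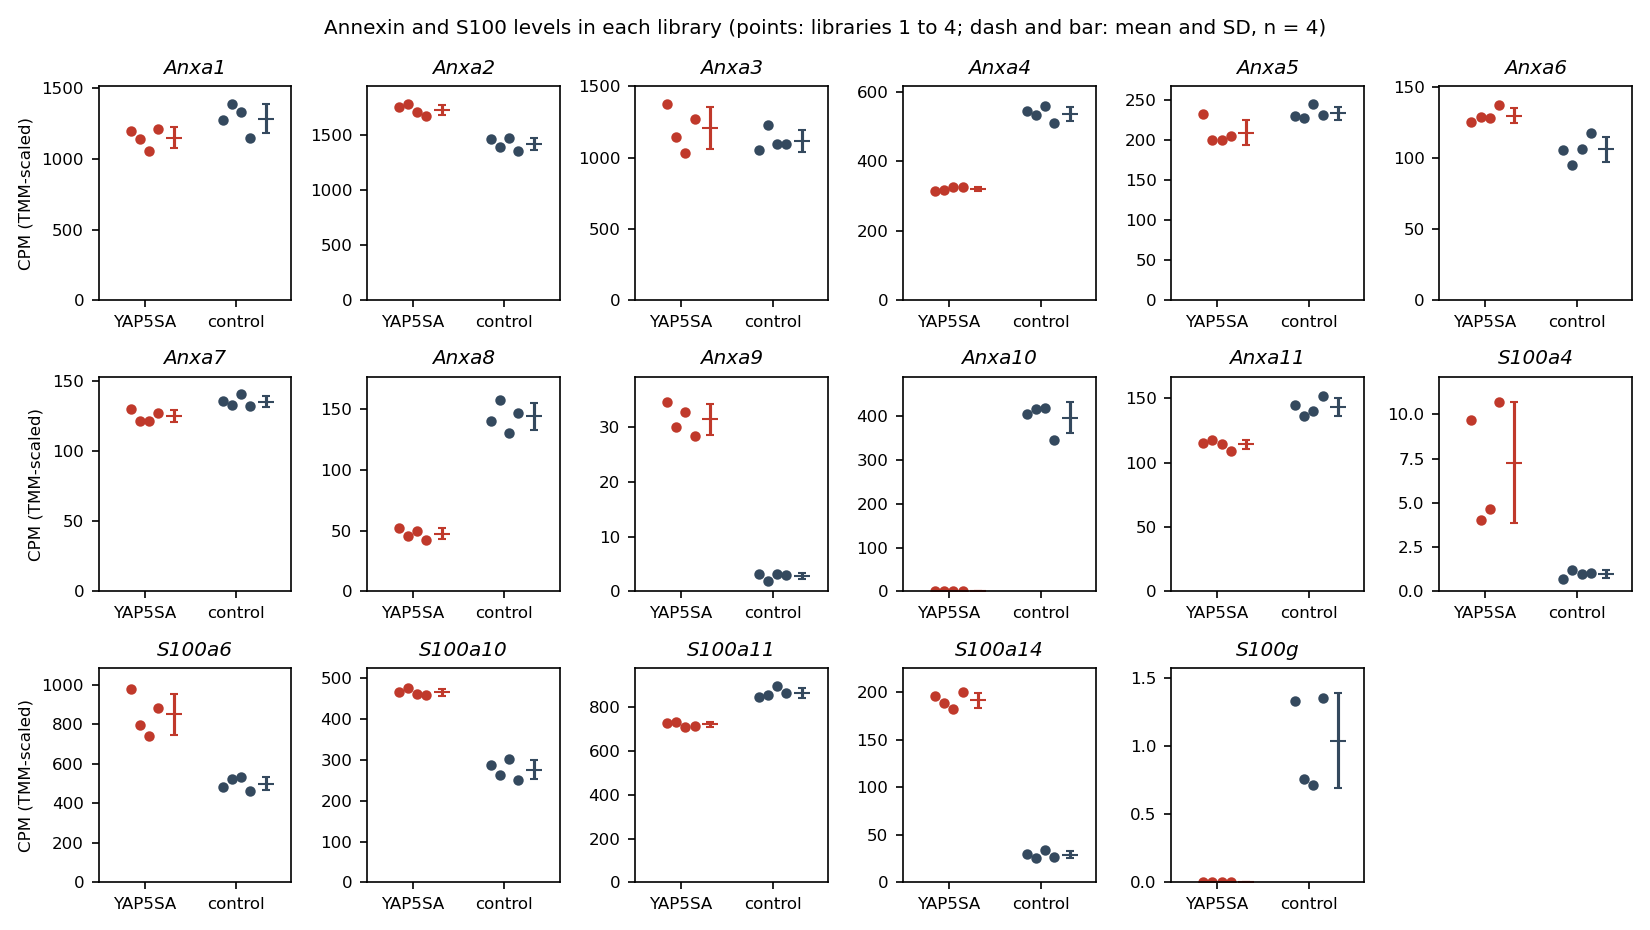
CPM (linear axes from 0) of the 17 annexin and S100 genes with a group mean of at least 100 CPM or a called change of at least 2-fold; points are single libraries 1 to 4, YAP5SA left and control right, and the dash and bar are mean and SD (n = 4). Anxa10 lay at 0.177 to 1.66 CPM in YAP5SA libraries against 345 to 419 CPM in controls, whereas Anxa1, Anxa3 and Anxa5 overlap between the groups.

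Among the annexins of restricted expression, the largest decrease was that of Anxa10. Its level was 0.971, 1.66, 0.837 and 0.177 CPM in the YAP5SA libraries, and 405, 416, 419 and 345 CPM in the controls. All 4 YAP5SA libraries were far below all controls. The log2 fold change was −8.74 ± 0.21 (SE; adjusted p = 5.74e-11, edgeR quasi-likelihood), and in controls Anxa10 held 10.1% of the family's summed CPM per kb of exon, against 0.0263% in YAP5SA. Of the 8 gastric markers named above, 6 fell over the same libraries, Sox2 rose and 1 did not pass. Gkn1 was at 0.0897 ± 0.104 CPM in YAP5SA and 53.5 ± 8.32 CPM in controls (SD, n = 4 each). The part of these markers in the Anxa10 decrease was not tested.

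Anxa8, an annexin of stratified and other barrier epithelia, had 52.4, 45.9, 49.4 and 42.2 CPM in YAP5SA and 141, 158, 131 and 147 CPM in controls. Again no library crossed over, and the level fell 3.03-fold (log2 fold change −1.60 with a standard error of 0.07, edgeR adjusted p = 3.27e-12). Anxa9, an atypical annexin that is thought to bind calcium poorly, went the other way. It had 34.7, 30.1, 32.8 and 28.4 CPM in YAP5SA and 3.16, 1.95, 3.16 and 3.08 CPM in controls, and rose 11.2-fold (log2 fold change 3.48 with a standard error of 0.13, edgeR adjusted p = 2.97e-13). Every YAP5SA library was above every control. Exons of Anxa9 share 4.53% of their bases with 6330562C20Rik on the same strand and 3.42% with Mindy1 on the opposite strand, and the handling of strand is not given in the sources used here.

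Anxa13, an annexin known from intestinal epithelium, was too low to test. It had 0 counts in YAP5SA and 13 in controls (6, 2, 5 and 0). With YAP5SA set to a floor of 3 counts in all, Anxa13 was 4.26-fold lower there, a bound that leaves out the counting error of the control reads. Without a filter on low counts it had an adjusted p of 0.0142 in edgeR's quasi-likelihood test, and 0.0534 in DESeq2. Anxa3, which is abundant in both groups, had 1375, 1148, 1037 and 1275 CPM in YAP5SA and 1056, 1228, 1096 and 1093 CPM in controls. The groups overlapped, with YAP5SA 1 and 4 above all controls and YAP5SA 3 below all of them, and the difference did not pass (log2 fold change 0.11 with a standard error of 0.08, edgeR adjusted p = 0.245).

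Anxa4, a membrane-binding annexin of secretory and other polarised epithelia, had 314, 317, 325 and 325 CPM in YAP5SA and 544, 534, 559 and 509 CPM in controls. The spread within each group was small against this gap, and the level fell 1.68-fold (log2 fold change −0.75 with a standard error of 0.05, edgeR adjusted p = 3.44e-10). Anxa2, which forms a complex with S100a10 at the plasma membrane, had 1753, 1782, 1708 and 1675 CPM in YAP5SA and 1466, 1391, 1471 and 1359.7 CPM in controls. It rose 1.22-fold without overlap of the groups (adjusted p = 0.000105, edgeR quasi-likelihood). Anxa6, the annexin with a duplicated core domain, was at 125, 129, 128 and 137 CPM in YAP5SA and 106, 95.3, 106 and 117 CPM in controls, a 1.23-fold rise (adjusted p = 0.00068, edgeR quasi-likelihood) with no overlap.

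Anxa11, which has a long N-terminal region and acts in vesicle and RNA granule traffic, had 115, 118, 115 and 109 CPM in YAP5SA and 145, 136, 140.1 and 152 CPM in controls. It fell 1.25-fold (adjusted p = 4.85e-05, edgeR quasi-likelihood), and the groups were apart. Its antisense neighbour Anxa11os overlaps 2.73% of its exon bases. Anxa7, synexin, had 129.7, 122, 122 and 127 CPM in YAP5SA and 135, 133, 140.2 and 132 CPM in controls. The groups did not overlap, but the difference was small and did not pass (log2 fold change −0.11 with a standard error of 0.05, edgeR adjusted p = 0.0712). It passed without control 4 (adjusted p = 0.0322, edgeR), against a range of 0.0322 to 0.265 over all alternatives.

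Anxa1, lipocortin, an anti-inflammatory annexin that also binds S100a11, had 1196, 1138, 1054 and 1211 CPM in YAP5SA and 1275, 1384, 1328 and 1146 CPM in controls. Control 4 lay among the YAP5SA libraries, and the 1.12-fold decrease passed by a narrow margin (log2 fold change −0.16 with a standard error of 0.06, edgeR adjusted p = 0.043). Anxa5, the annexin used to stain exposed phosphatidylserine, had 233, 200.3, 199.7 and 205 CPM in YAP5SA and 229.9, 227, 245 and 231 CPM in controls. YAP5SA 1 stood with the controls, and the decrease was 1.11-fold (adjusted p = 0.0271, edgeR quasi-likelihood). Both calls were lost when counts were scaled by library size alone (adjusted p = 0.113 for Anxa1 and 0.0723 for Anxa5, edgeR). Anxa1 was also lost without YAP5SA 2 or 3 or control 1, 2 or 3, with adjusted p up to 0.148, and Anxa5 without YAP5SA 2, 3 or 4 or control 3, with adjusted p up to 0.0819 (edgeR).

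**Figure D2:**
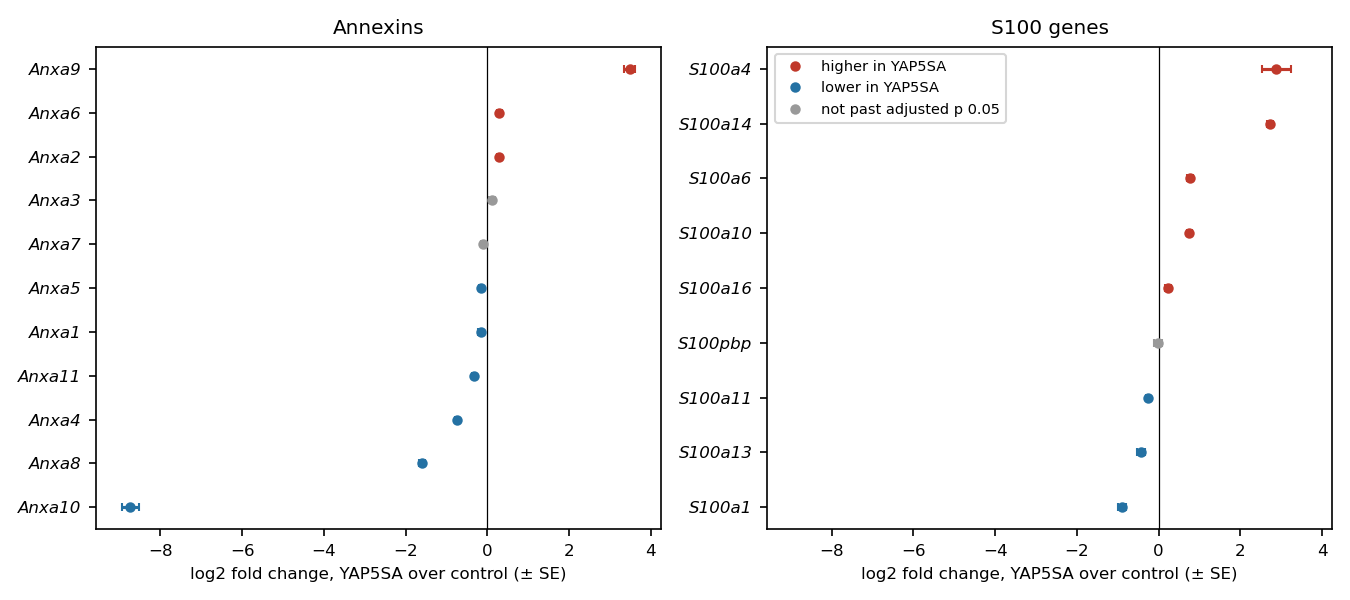
Log2 fold change of YAP5SA over control with its standard error for the 11 tested annexins and for 9 of the 10 tested S100 genes (S100g, with 0 counts in YAP5SA, is left out because its fitted value depends on the prior count). Colours mark genes higher in YAP5SA, lower in YAP5SA and not past an adjusted p of 0.05, and the values run from −8.74 (Anxa10) to 3.48 (Anxa9).

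S100 genes whose proteins dock onto annexins were among the members with the highest levels per kb of exon. S100a10, which binds no calcium itself and pairs with Anxa2, had 467, 475, 461 and 458 CPM in YAP5SA and 288, 263, 302 and 252 CPM in controls. It rose 1.69-fold with a wide gap between the groups (log2 fold change 0.75 with a standard error of 0.06, edgeR adjusted p = 3.63e-09). Because S100a10 rose more than Anxa2, the ratio of their levels per kb of exon was 0.821, 0.821, 0.831 and 0.842 in YAP5SA libraries and 0.605, 0.581, 0.631 and 0.570 in controls. These ratios did not overlap between the groups.

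S100a6, calcyclin, which binds Anxa2, Anxa6 and Anxa11, had 978, 798, 742 and 881 CPM in YAP5SA and 484, 522, 533 and 459.9 CPM in controls. It rose 1.70-fold (log2 fold change 0.77 with a standard error of 0.08, edgeR adjusted p = 3.37e-07), and the YAP5SA libraries spread more widely than the controls, with libraries 1 and 4 highest. S100a11, the partner of Anxa1, was at 729.5, 733, 709 and 713 CPM in YAP5SA and 847, 854, 897 and 865 CPM in controls. It fell 1.20-fold without overlap (adjusted p = 0.000107, edgeR quasi-likelihood). The ratio of S100a11 to Anxa1 per kb was 3.58 ± 0.21 in YAP5SA and 3.86 ± 0.33 in controls (SD, n = 4 each), and the library values overlapped.

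S100a14, an S100 protein of epithelial cells, had the largest rise among members of more than 10 CPM in both groups. Its level was 196, 188, 182 and 199.98 CPM in YAP5SA and 29.7, 26.0, 33.7 and 26.6 CPM in controls. Every YAP5SA library was several times above every control, and the gene rose 6.58-fold (log2 fold change 2.72 with a standard error of 0.07, edgeR adjusted p = 2.97e-15). Its neighbour S100a16, a broadly expressed S100 gene, averaged 49.1 ± 2.21 CPM in YAP5SA and 41.9 ± 3.09 CPM in controls, and rose 1.17-fold (adjusted p = 0.011, edgeR quasi-likelihood).

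S100a1, a calcium sensor best known from heart and skeletal muscle, averaged 34.1 ± 4.06 CPM in YAP5SA and 63.1 ± 6.67 CPM in controls (SD, n = 4 each). It fell 1.86-fold (log2 fold change −0.89 with a standard error of 0.09, edgeR adjusted p = 1.78e-07). S100a13, which takes part in the non-classical export of growth factors, averaged 12.3 ± 0.76 CPM in YAP5SA and 16.8 ± 1.25 CPM in controls, and fell 1.36-fold (adjusted p = 0.00101, edgeR quasi-likelihood). These are the divergent genes whose starts are separated by the bases in capitals above. Both fell, S100a1 by 0.89 and S100a13 by 0.44 on the log2 scale, and the annotation gives no shared exon bases for them.

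S100a4, metastasin, a binder of nonmuscle myosin that is often used as a marker of fibroblasts and macrophages, was low in both groups. It had 9.71, 4.03, 4.63 and 10.7 CPM in YAP5SA and 0.695, 1.19, 0.967 and 1.05 CPM in controls. All YAP5SA libraries were above all controls, with YAP5SA 1 and 4 about level and YAP5SA 2 and 3 lower. The log2 fold change was 2.88 ± 0.35 (SE; adjusted p = 6.77e-06, edgeR quasi-likelihood) and ran from 2.63 to 3.08 when single libraries were left out. Mesenchymal markers summed to 0.607 to 1.71 CPM in YAP5SA and 1.65 to 4.17 CPM in controls, with 0 of 7 counted often enough to test and Lum at 0. Immune markers summed to 9.89 to 10.6 CPM in YAP5SA and 19.8 to 39.2 CPM in controls, of which Cd68 made up most. Of these 8 markers, Cd68 fell and Csf1r, a receptor of macrophages, rose, with 2.01, 1.05, 0.901 and 2.002 CPM in YAP5SA and 0.253, 0.108, 0.255 and 0.150 CPM in controls. Csf1r was thus also highest in YAP5SA 1 and 4, and its part in the S100a4 result was not tested. Annotated exons of S100a4 share 51.7% of their bases with the same-strand gene model Gm42674, so its counts depend on how shared reads were assigned.

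S100a4 was not alone in this spread among YAP5SA libraries. S100a7a, psoriasin, which the symbol pattern leaves out, had 40.6, 20.4, 17.1 and 38.3 CPM in YAP5SA and 9.03, 12.02, 11.4 and 10.8 CPM in controls. Libraries 1 and 4 were again the high ones, as they were for S100a6 and Anxa3. S100a10 and S100a11 showed no such spread, with SDs of 7.58 and 11.7 CPM on means of 465 and 721 CPM in YAP5SA.

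S100g, which encodes calbindin-D9k, a cytosolic calcium buffer of absorptive epithelia, lies on the X chromosome. It had 0 counts in all YAP5SA libraries and 1.33, 0.758, 0.713 and 1.35 CPM in controls. Set to the same floor of 3 counts, YAP5SA was 21.9-fold lower, a bound that again leaves out the counting error of the control reads. The edgeR quasi-likelihood test of the fitted fold change of S100g gave an adjusted p of 1.11e-05. S100g passed the filter on low counts only through the controls, where it was higher, so its call rests on that selection. The level in controls was low throughout. S100pbp encodes a protein that binds human S100P and is not itself an S100 protein. It averaged 25.0 ± 3.57 CPM in YAP5SA and 25.1 ± 1.83 CPM in controls, and did not pass (log2 fold change −0.01 with a standard error of 0.10, edgeR adjusted p = 0.97).

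The remaining S100 genes were at or near the detection limit. S100a5 had no counts. S100a2 had 3 counts in YAP5SA and 1 in controls, as did S100a8, and S100a9 had 0 in YAP5SA and 2 in controls. S100a8 and S100a9 encode calprotectin, the alarmin of neutrophils and inflamed epithelium. The neutrophil genes Camp, Mpo and Elane were at 0 in all libraries. Most of the summed CPM of that marker list came from Ltf, lactotransferrin, which secretory epithelia also express, at 110.9 ± 12.5 CPM in YAP5SA and 40.8 ± 4.98 CPM in controls, and the list summed to 93.0 to 121 CPM in YAP5SA and 36.6 to 45.6 CPM in controls.

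S100b, a glial S100 gene, had 1, 10, 13 and 12 counts in YAP5SA and 1, 1, 5 and 1 in controls. YAP5SA 1 was as low as the controls, and the gene was not tested. Without a filter it had an adjusted p of 0.0099 in edgeR's quasi-likelihood test, and DESeq2 gave 0.0394. The glial markers Sox10 and Foxd3 were at 0 in all libraries, and the list summed to 140.2 to 160.1 CPM in YAP5SA and 122 to 155 CPM in controls, nearly all of it Erbb3, a receptor that epithelia also express. S100a3 had 13, 8, 13 and 17 counts in YAP5SA and 3, 5, 11 and 2 in controls, with an adjusted p of 0.0401 without a filter (edgeR quasi-likelihood) and 0.0638 in DESeq2. S100z had 8 counts in YAP5SA and 2 in controls.

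Per kb of annotated exon, S100a11 was the most abundant S100 gene in both groups, at 1412 CPM per kb in YAP5SA and 1694 CPM per kb in controls. Its share of the family's summed CPM per kb was 53.4% in YAP5SA and 69.1% in controls. S100a6 followed with 23.5% in YAP5SA and 14.9% in controls, and S100a10 with 14.5% in YAP5SA and 9.29% in controls. S100a14 ranked 4 in YAP5SA and 7 in controls. The annexins were led in YAP5SA by Anxa2 (464 CPM per kb), Anxa1 (395) and Anxa3 (332), and in controls by Anxa1 (441), Anxa2 (381) and Anxa3 (307). Anxa10 ranked 11 of 12 in YAP5SA and 4 in controls. Exon lengths were taken from an annotation that may not be the one the counts were made with, so the order of close neighbours is uncertain.

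**Figure D3:**
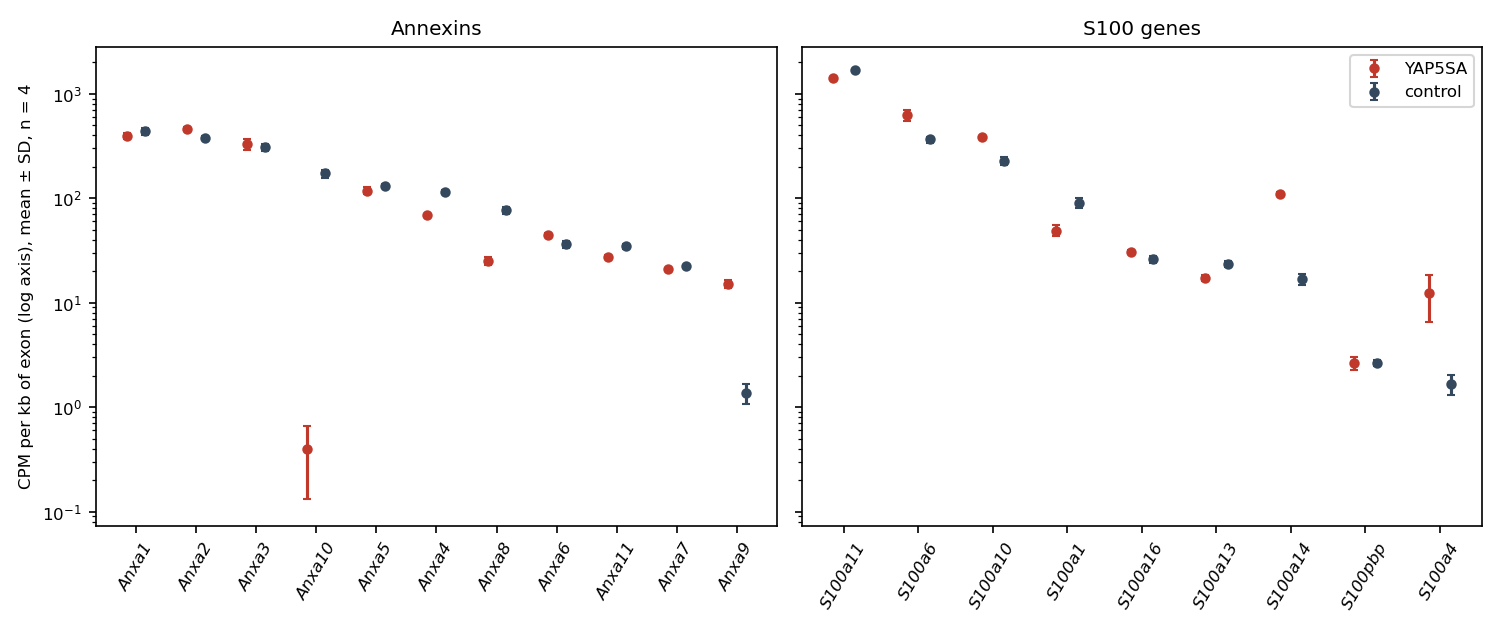
Mean CPM per kb of exon (log axis) with SD (n = 4) for the tested annexins and S100 genes other than S100g, YAP5SA left and control right in each pair, in the order of the control levels. Anxa10 and S100a14 leave the order of the controls most, while S100a11 stays highest with 1412 CPM per kb in YAP5SA and 1694 CPM per kb in controls.

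Of the 17 S100 members, 13 lie on chromosome 3, in a stretch that runs from S100a1 to S100a10 and also holds genes of the cornified envelope. Of these 13, 8 were tested, of which 5 rose and 3 fell (background 23.6% higher and 25.5% lower). Neighbours did not all share a direction. S100a1 and S100a13 at one end fell, the next tested members S100a14, S100a16, S100a4 and S100a6 rose, and at the other end S100a11 fell beside S100a10, which rose. Among 60 other protein-coding genes within the stretch, 15 were tested, of which 8 rose, 2 fell and 5 did not pass, against the same background. The 8 that rose include S100a7a, an S100 gene that the symbol pattern leaves out. Rptn, which encodes repetin, an S100 fused-type protein of the cornified layer, rose 21.6-fold, with 30.7 ± 1.80 CPM in YAP5SA and 1.41 ± 0.126 CPM in controls (SD, n = 4 each; adjusted p = 2.85e-15, edgeR quasi-likelihood). The 2 that fell were Sprr1a, a cornified envelope precursor, with 25.0 ± 2.76 CPM in YAP5SA and 584 ± 55.9 CPM in controls, and Ivl, involucrin, with 3.04 ± 0.28 CPM in YAP5SA and 31.4 ± 2.25 CPM in controls, named here after their values were seen. The annexins Anxa5 and Anxa9 lie on the same chromosome outside the stretch, and the other annexins are spread over other autosomes.

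**Figure D4:**
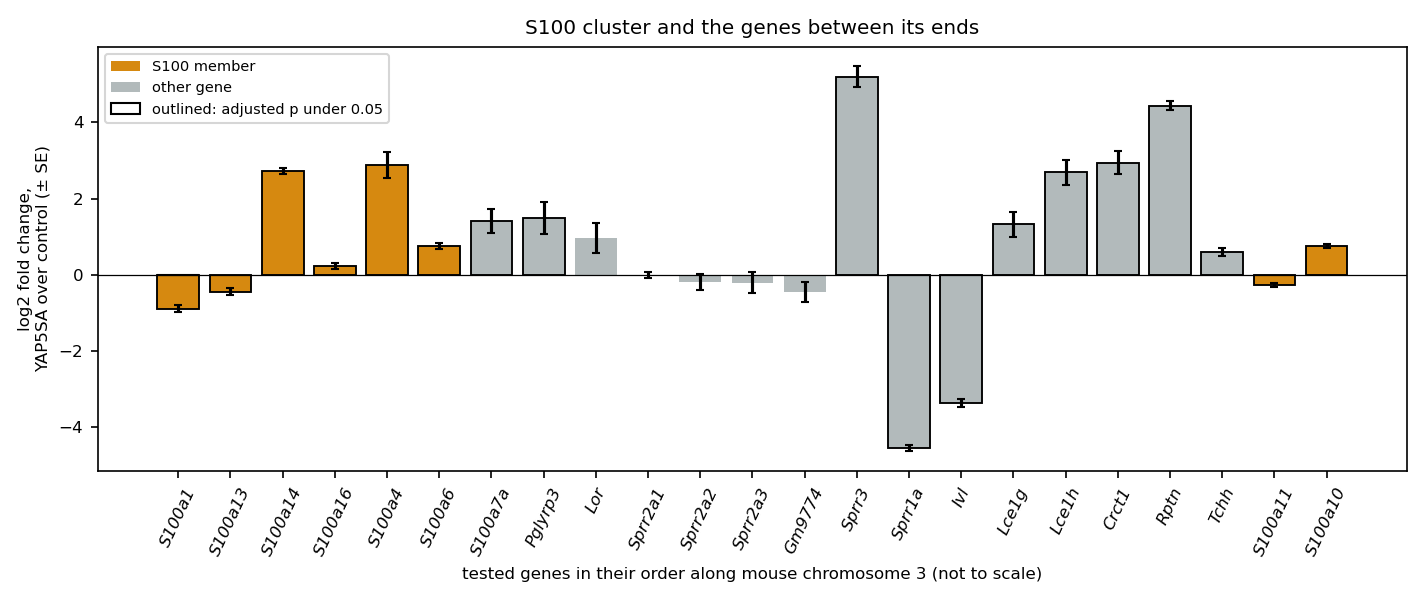
Log2 fold change (YAP5SA over control, bars with SE) of the 23 tested genes from S100a1 to S100a10 in their order along chromosome 3, not to scale. S100 members are orange and other genes, S100a7a among them, are grey, and outlined bars passed an adjusted p of 0.05. Both directions occur along the stretch, with S100 members between −0.89 (S100a1) and 2.88 (S100a4) and other genes between −4.55 (Sprr1a) and 5.19 (Sprr3).

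Genes whose proteins work with annexins and S100 proteins also divided. Of 13 tested partners and targets, 3 rose and 7 fell (median log2 fold change −0.24), against 23.6% higher and 25.5% lower among all tested genes. Ahnak, a giant scaffold protein that the complex of Anxa2 and S100a10 binds, had 1361, 1169, 1201 and 1157 CPM in YAP5SA and 458, 435, 415 and 616 CPM in controls, and rose 2.54-fold (adjusted p = 2.64e-06, edgeR quasi-likelihood). Its relative Ahnak2 rose 1.90-fold and Iqgap1, a scaffold for S100 proteins, 1.25-fold. Plat, tissue plasminogen activator, whose activity the same complex promotes at the cell surface, averaged 39.8 ± 4.35 CPM in YAP5SA and 122 ± 3.16 CPM in controls, and fell 3.07-fold (adjusted p = 1.51e-12, edgeR quasi-likelihood). Myh10, a nonmuscle myosin heavy chain, fell 4.73-fold, Pla2g4a, a cytosolic phospholipase that annexin A1 restrains, 1.86-fold, and Ctsb, cathepsin B, 1.38-fold.

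Of 6 receptors for extracellular annexin A1 and S100 proteins, 2 were tested, of which 1 rose and 1 did not pass. Their median log2 fold change was 0.45, and the background was 23.6% higher and 25.5% lower. Ager, Fpr1, Fpr2 and Fpr3 were too low to test. Tlr4, a receptor for S100a8 and S100a9, averaged 56.9 ± 4.55 CPM in YAP5SA and 34.9 ± 2.48 CPM in controls, and rose 1.63-fold (adjusted p = 3.08e-07, edgeR quasi-likelihood). Bsg, basigin, a receptor for S100a9, at 2311 ± 202 CPM in YAP5SA and 2027 ± 261 CPM in controls, did not pass (adjusted p = 0.0888, edgeR quasi-likelihood), and passed without YAP5SA 1 (0.022), without control 3 (0.0326) or without a filter on low counts (0.000507), with a range up to 0.264 over the alternatives.

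Of 17 tested ferlins and membrane repair genes, 4 rose and 5 fell (median log2 fold change 0.03), a share close to the 49.1% called among all tested genes. Capn2, the catalytic subunit of m-calpain, averaged 131 ± 23.3 CPM in YAP5SA and 37.6 ± 3.90 CPM in controls, and rose 3.49-fold (adjusted p = 1.98e-07, edgeR quasi-likelihood), while Myof, myoferlin, fell 1.28-fold. The other genes that rose were Capns1, the small calpain subunit (1.16-fold), Chmp4c, an ESCRT-III subunit (1.13-fold), and Dysf, dysferlin. Dysf was near the detection limit, with 0.866 CPM in YAP5SA and 0.218 CPM in controls, and passed the filter only through the YAP5SA libraries. Of 14 other tested EF-hand genes, 5 rose and 4 fell (median −0.09, background 23.6% higher and 25.5% lower). Among these were Cib1 (1.72-fold lower), Chp1 (1.39-fold lower), Calml4 (0.0779 CPM in YAP5SA and 1.41 CPM in controls) and Pef1 (1.47-fold higher). Calml4 passed the filter on low counts only through the controls.

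Of 5 tested copines, which are calcium-dependent phospholipid-binding proteins like the annexins, 2 rose and 2 fell (median 0.14, background 23.6% higher and 25.5% lower). Cpne2 fell 3.62-fold, Cpne8 rose 1.49-fold and Cpne3 rose 1.16-fold. Cpne4 also fell, with 1 count in YAP5SA and 224 in controls, and passed the filter on low counts only through the controls. All 3 tested genes of the list of S100 fused-type proteins and other S100 relatives rose (median 1.42, background 23.6% higher). They were the fused-type genes Rptn and Tchh (1.52-fold) and the S100 gene S100a7a (2.68-fold). The other 6 of the 9 genes on the list, among them Flg, were too low to test. Of 13 tested calcium pumps, stores and entry genes, 4 rose and 4 fell (median −0.09, background 23.6% higher and 25.5% lower). Atp2c2, a secretory pathway calcium pump, rose 2.54-fold and the endoplasmic reticulum pump gene Atp2a2 1.27-fold, Stim1 rose 1.35-fold, and Orai2 fell 1.67-fold.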

How the data were processed

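The authors deposited unnormalized read counts for each gene in whole numbers. The submitters' processing notes name cutadapt, HISAT2 2.0.1, HTSeq 0.6.1 and build mm9, without roles. Annotation release and strand setting: not given in the sources used here. Rows without a gene name (0.190% to 0.221% of a library's counts) were left out, and rows sharing a symbol were summed. Genes passing edgeR's filterByExpr (minimum count 10, minimum total 15) were kept, which left 14058. After TMM normalization, edgeR 4.0.16 (R 4.3.3) tested genotype as the only term with its quasi-likelihood functions (glmQLFit with robust estimation, glmQLFTest), with Benjamini-Hochberg adjustment over all tested genes and calls at 0.05. A standard error is the size of a log2 fold change over the root of its F value. Chromosomes, gene order, exon overlaps and merged exon lengths come from GENCODE M21 by symbol, on another build than the counts.

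Within a group, any pair of libraries differed beyond sampling noise (chi-square per degree of freedom 3.60 to 30.7), so all 8 were counted. No molecular identifiers are mentioned, so reads need not be independent molecules, and floors reflect counting error alone. Alternatives were other scalings and filters, DESeq2 1.42.0, no robust estimation, a threshold of 0.01, a replicate block and leaving out each library. Members and lists were chosen with earlier results of these data known. Values by library are given for members called with at least a 2-fold change or with a group mean of at least 100 CPM, and up to 4 called members with the smallest adjusted p, those against the main direction and the most abundant gene were eligible to be named per list.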

Additional observations from a re-analysis of the deposited data

Results flagged for a closer look

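In 6 of 106 sets of 4 libraries (21 tested members, 30 other named genes and both family sums, in each group) a single library stood apart from the other three by more than 0.829 of the range. Chance alone gives this in about 1 in 20 such sets. Anxa5 was at 233 CPM in YAP5SA 1, against 205 CPM in the nearest YAP5SA library. Anxa9 was at 1.95 CPM in control 2, against 3.08 CPM in the nearest control. S100a1 had such a library in both groups, with 40.1 CPM in YAP5SA 1 against 32.8 CPM in the next YAP5SA library, and with 53.2 CPM in control 4 against 65.5 CPM in the next control. Bsg was at 2008 CPM in YAP5SA 1, against 2393 CPM in the nearest YAP5SA library. Cpne4 was at 0.0644 CPM in YAP5SA 3, which is a single read, and at 0 in the other YAP5SA libraries. Any such set passes the limit, whatever the size of its only value above 0.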

How the results depend on the processing

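Of 335 recomputed values for the 21 tested members, 313 kept their direction and their side of the threshold. Those that did not belong to Anxa1, Anxa5, Anxa7, S100a16 (adjusted p = 0.011, lost at a threshold of 0.01 in edgeR's test) and S100pbp. S100pbp, which passed under no setting, changed sign to a log2 fold change of 0.022 with library size only, 0.013 without a filter, and up to 0.052 without single libraries (−0.082 to 0.052). The count of called annexins was 9, with 7 to 10 when single libraries were left out and 7 to 9 under the other alternatives, and that of S100 genes was 9, with 9 to 10 and 8 to 11. All tested genes changed numbered 6899, with 6371 to 7317 and 5377 to 7611. Among the receptor genes 1 was called, 2 without a filter on low counts, and 1 to 2 without single libraries. Library numbers did not pair the groups (correlations of deviations −0.08 to 0.09, and 1 of 4 libraries closest to its own number); with a replicate block the count of all tested genes changed was 6586, among them 8 annexins and 9 S100 genes, Anxa1 being lost (adjusted p = 0.0783, edgeR). Leaving out libraries for the family sums was chosen after the data were seen and gave ratios of 0.902 to 0.935 for annexins and 1.27 to 1.32 for S100 genes. At this depth, members under about 10 reads a library could not be compared.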
